A study of Mus musculus with 6 samples.

Results

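The miRNA cluster in an intron of Sfmbt2 was examined in 6 small RNA libraries, each from mouse heart and called hearts 1 to 6 by the replicate number in the labels, which do not say whether each came from a separate animal. The mice were C57BL/6J males of wild-type genotype and 18 weeks of age, and they form 1 group. C57BL/6J is the common inbred laboratory mouse. The labels name the tissue as whole heart, whereas their protocol describes frozen ventricle tips, and no treated or mutant animals were included. Members were all sense entries of the count tables that lie within chr2:10466900-10515900 of the GRCm38 genome, on either arm of a hairpin. This gave 64 of the 1102 entries listed, from 51 hairpins. No antisense entry was listed in the window.

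MicroRNAs (miRNAs), which are 19 to 24 bases long for these members, are cut from a hairpin precursor, either from its 5p or its 3p arm. They repress mRNAs mainly through the seed, bases 2 to 8 of the mature strand. Sfmbt2 encodes a Polycomb group protein and is imprinted, with expression from the paternal allele, and it is best known from the placenta. One of its introns carries a large array of tandemly repeated hairpins of the miR-297, miR-466, miR-467 and miR-669 families, which is known from embryonic stem cells and trophoblast. In the heart, miR-669a has been described as a repressor of MyoD, the master factor of skeletal muscle, in cardiac progenitor cells. The host transcript and the parental origin of the reads were not measured here.

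The window lies inside the intron of Sfmbt2 that runs on chromosome 2 from 10461473 to 10523944. It is the intron between exons 10 and 11 in one annotated protein-coding transcript and between exons 11 and 12 in another. The members are transcribed from the plus strand, as is Sfmbt2. The annotation places 111 hairpin loci of the plus strand in the window, 67 of them named for the 4 families and 44 with other symbols. Of the 67 named loci 49 had an entry, which were 16 of 22 for miR-466, 12 of 14 for miR-467, 20 of 27 for miR-669 and 1 of 4 for miR-297. Of the 44 other loci 2 had an entry, Gm25022 and Gm26092. Neighbouring hairpins from miR-467a-2 to miR-467a-9, with miR-467b in the series, started 2413 to 2470 bases apart, which is the period of the repeat. Every entry in the tables had a read in at least 1 library. A locus without an entry is therefore called unlisted, and no value is given for it.

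The libraries held 3966169 to 6007322 counts, so that 1 read was worth 0.166 to 0.252 CPM (counts scaled to a library total of 1000000). A count of 0 allows up to 3 reads, or 0.499 to 0.756 CPM. Intervals and limits in the text cover counting error only, since the reads carried no molecular identifiers. Heart muscle miRNAs (miR-1a-3p, miR-133a-3p, miR-208a-3p and miR-499-5p) together stood at 94130 to 106400 CPM over the libraries, and those of endothelium (both arms of miR-126) at 83980 to 97260 CPM. The erythroid markers (both arms of miR-451 and miR-144-3p) stood at 2177 to 5692 CPM and the leukocyte markers at 985 to 1485 CPM. Of 7 markers of pluripotent cells 3 were listed, all of the miR-302 family, with 0 to 3 reads per library together. Of 4 germ line markers miR-741-3p and miR-871-3p were listed, with 7 to 39 reads per library together. Which cell types the cluster's reads came from was not tested, and fewer cells of a type and less RNA per cell cannot be told apart.

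Reads of the cluster were scarce. It held 541 reads over the 6 libraries, which was 0.00183% of all counts. Whether reads that match several loci were all counted is not known. Hearts 1 to 6 had 104, 88, 74, 78, 105 and 92 reads, or 21.8, 17.7, 17.5, 19.7, 17.5 and 16.4 CPM. The mean was 18.4 ± 1.97 CPM (SD, n = 6). Heart 1 was the highest and heart 6 the lowest, and their exact Poisson 95% intervals (17.8 to 26.5 and 13.2 to 20.1 CPM) overlapped. The coefficient of variation of the CPM was 10.7%, next to 10.5% that counting alone gives at this mean number of reads. For the sum of the cluster no spread between hearts beyond counting was therefore detectable at this depth. By family these 2 values were 23.4% and 15.3% for miR-467, 18.0% and 18.8% for miR-669, and 30.8% and 26.6% for miR-466. The spread of the families was not tested. Library preparation and the heart cannot be told apart, because each number stands for 1 library. Without heart 4 the mean was 18.2 CPM and without heart 5 it was 18.6 CPM.

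**Figure D1:**
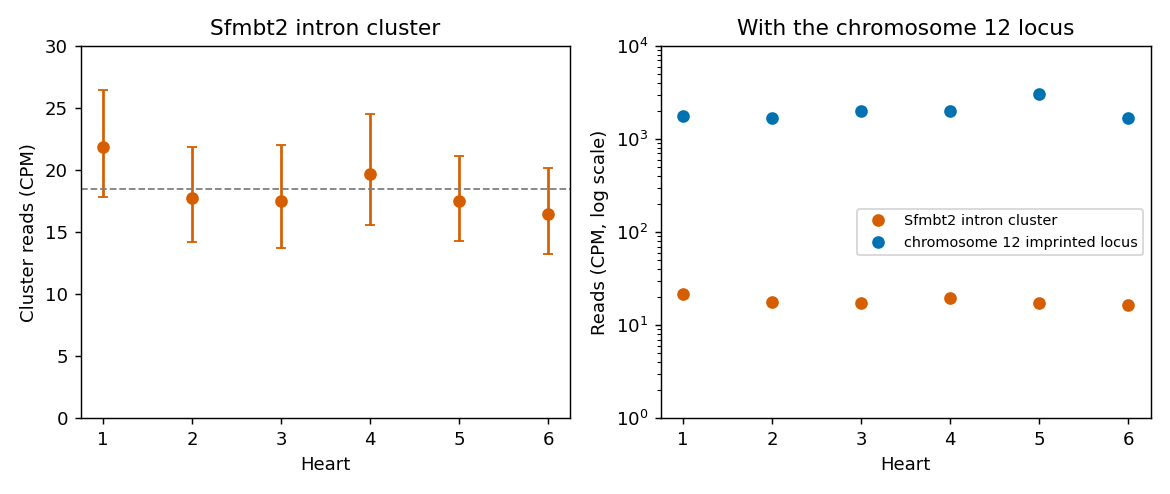
Left, reads of the cluster in CPM for hearts 1 to 6 with exact Poisson 95% intervals, and the mean as a dashed line. Right, the same values on a log axis with those of the chromosome 12 imprinted miRNA locus. All 6 intervals on the left contain the mean of 18.4 CPM, and on the right every heart has the chromosome 12 locus far above the cluster.

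The cluster was set beside the imprinted Dlk1-Dio3 locus on chromosome 12, the other large imprinted miRNA array of the mouse, which is expressed from the maternal allele. Its 70 sense entries lie between 109563710 and 109747949 on chromosome 12. They held 61020 reads, and hearts 1 to 6 had 1773, 1678, 2023, 1989, 3051 and 1691 CPM. The summed level there was 108-fold above that of the Sfmbt2 cluster, with a ratio between 81.2 in heart 1 and 175 in heart 5. The log2 ratio of the Sfmbt2 cluster to it was -6.76 ± 0.38 (SD, n = 6), lower in 6 of 6 hearts (exact permutation test by sign flips, two-sided, p = 0.031, the smallest p that 6 pairs allow). The number of entries was similar, 64 against 70, but 1 of 64 had a mean of at least 10 reads per library, against 23 of 70. Entries of the Sfmbt2 cluster divide reads over identical copies, which lowers its count. With copies summed, 2 of its 37 mature names reached that mean. These are ratios of reads and not of molecules. Sequences at 2 or more annotated loci held 57.5% of the cluster's reads. How reads matching several loci were treated is not given. If any were left out, the cluster's level would be too low and the ratio too high. No relation between the level of the cluster and that of the chromosome 12 locus was detectable over the hearts (r = -0.19, exact permutation p = 0.881, adjusted p = 0.881, rho = -0.14, exact p = 0.803, n = 6). Leaving out hearts 2 and 5, whose chromosome 12 levels lay farthest from the median, gave an r of 0.03. The value was not stable: r was -0.49 (exact permutation p = 0.05, n = 6) with TMM-scaled totals, 0.04 without heart 1 and 0.15 without heart 5. With the library total r was -0.46 (exact permutation p = 0.361, adjusted over the 2 relations 0.722, rho = -0.66, exact p = 0.175, n = 6), and it was -0.32 without hearts 4 and 5. The library total is also the divisor of the cluster's CPM, which by itself can give a negative r. The CPM of the chromosome 12 locus has the same divisor.

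Detection was patchy from heart to heart. Hearts 1 to 6 had a read at 39, 30, 26, 28, 33 and 27 of the 64 entries. Only 9 entries had a read in all 6 hearts, and 16 had reads in 1 heart, of which 4 in heart 1, 4 in heart 2, 1 in heart 3, 1 in heart 4, 4 in heart 5 and 2 in heart 6. In total over the libraries, 14 entries had 1 read and 37 had 1 to 3 reads. The 13 entries with at least 10 reads held 70.6% of the reads of the cluster. Thinned to the depth of heart 4, the shallowest library, the expected numbers of entries with a read were 35.9, 26.9, 25.4, 28.0, 27.8 and 23.4, and heart 1 stayed the highest. The 64 entries carry 37 mature names once copies are summed. Of these 19 had a mean of at least 1 read per library and 2 a mean of at least 10, miR-467a-5p and miR-467d-5p. Just below that mean stood miR-467e-5p. By mean CPM, miR-467d-5p was number 328 and miR-467a-5p number 330 of 977 mature names in the tables. With Gm25022-5p, which has the same sequence, miR-467a-5p had 82 reads and a mean of 2.81 CPM, so these 2 members have no order within counting error.

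**Figure D2:**
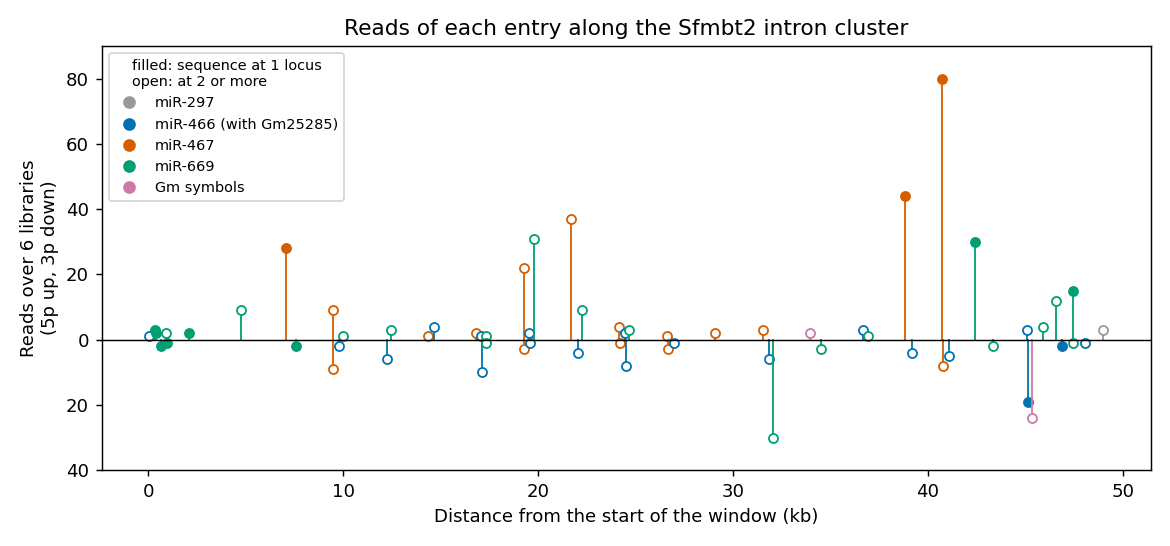
Reads over the 6 libraries of each of the 64 entries (vertical axis, 5p upwards and 3p downwards) against the distance from the start of the window in kb. Filled points are sequences found at 1 annotated locus and open points sequences found at 2 or more. The highest bar is miR-467d-5p with 80 reads, and most bars hold 3 reads or fewer.

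The miR-467 family led the cluster. Its entries held 257 reads, 52, 34, 32, 47, 51 and 41 in hearts 1 to 6, or 8.83 ± 2.07 CPM. miR-467d-5p lies on chromosome 2 from 10507640 to 10507661 and had 16, 13, 8, 18, 13 and 12 reads in hearts 1 to 6, 80 in all (2.79 ± 1.00 CPM). miR-467a-5p, summed over its 8 listed copies of that name, had 18, 9, 11, 13, 15 and 14 reads, also 80 in all (2.75 ± 0.688 CPM). The exact Poisson 95% interval of each total was 63.4 to 99.6 reads, and the totals were equal. Heart 4 was the highest for the first and heart 1 for the second. miR-467e-5p, from 10505731 to 10505752, had 8, 5, 4, 7, 11 and 9 reads (1.47 ± 0.392 CPM), lowest in heart 3 and highest in heart 5. The coefficient of variation was 36.0%, 25.1% and 26.6% for these 3 names, against 27.4%, 27.4% and 36.9% from counting alone. miR-467c-5p had 28 reads in total (3 to 7 per heart), miR-467a-3p 16, miR-467d-3p 8 and miR-467b-5p 1.

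The miR-669 family followed with 170 reads, 31, 36, 24, 17, 32 and 30 in hearts 1 to 6, or 5.73 ± 1.03 CPM. Summed by name, miR-669a gave nearly equal arms. Its 5p strand had 6, 10, 9, 2, 5 and 8 reads and its 3p strand 8, 6, 4, 5, 9 and 6, or 40 and 38 in all. The 5p counts were lowest in heart 4 and highest in heart 2, while the 3p counts were lowest in heart 3 and highest in heart 5. miR-669c-5p had 30 reads (1 to 8 per heart), miR-669m-5p 16, miR-669o-5p 15, and miR-669d-5p and miR-669p-5p 9 each. Gm26092-3p, an entry with a provisional symbol that shares its sequence with miR-669a-3p, had 24 reads, with 0 in heart 1 and 2 to 8 in the other 5. These reads are not in the 3p total by name. Summed by mature sequence over all names, the miR-669a-5p sequence had 49 reads (exact Poisson interval 36.25 to 64.78). The miR-669a-3p sequence, with Gm26092-3p included, had 61 (46.66 to 78.36). The intervals overlapped, so no excess of the 3p sequence was detectable at this depth.

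miR-466 members held 85 reads, 21, 10, 15, 10, 16 and 13 in hearts 1 to 6, or 2.91 ± 0.897 CPM, counting Gm25285, which RefSeq also names Mir466c-3. The sequence shared by miR-466b-3p, miR-466c-3p, miR-466e-3p, miR-466p-3p and Gm25285-3p had 42 reads. Of these 14 are listed under miR-466b-3p and 10 under miR-466c-3p, a split between names that rests on how shared reads were placed. miR-466d-3p, whose sequence has 1 annotated locus, had 19 reads, 3 in each heart except heart 3 with 4. miR-297 was represented by 3 reads of miR-297a-3, 2 in heart 5 and 1 in heart 6. No entry named for the 4 families was listed outside the window.

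**Figure D3:**
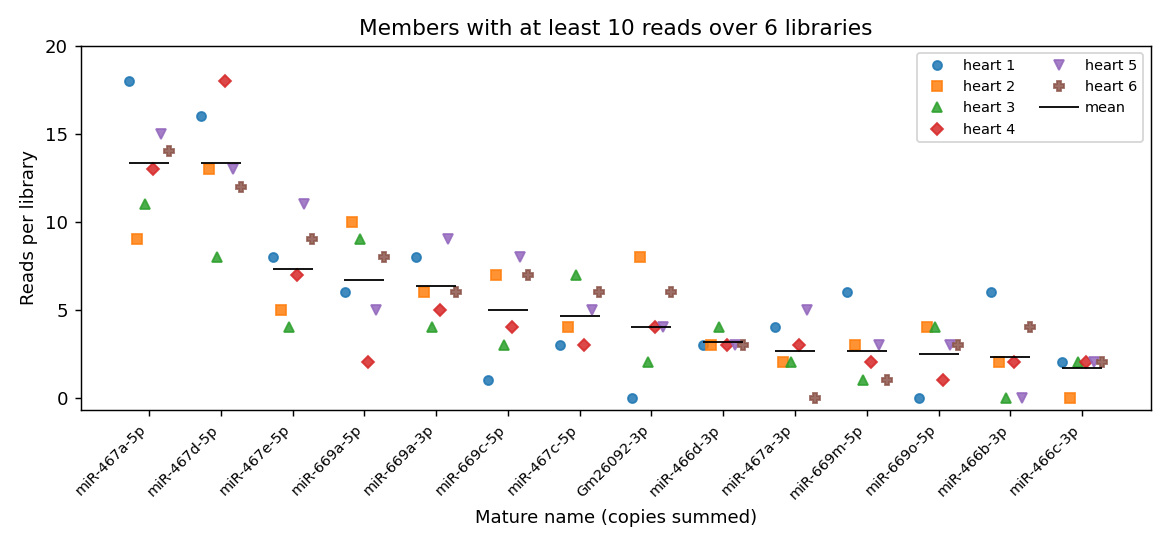
Reads per library (vertical axis) for the 14 mature names with at least 10 reads over the 6 libraries, with copies summed, 1 symbol per heart and the mean as a bar. miR-467a-5p and miR-467d-5p have means of 13.3 reads, and the counts of neighbouring names overlap.

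The members differed from the other entries in the medians of their base composition and base alternation, though not in every sequence. The 64 entries hold 30 distinct mature sequences. On the 5p side of the hairpins, G and U made up a median of 72.7% of the bases over 17 distinct sequences, against 52.6% over the 445 other distinct sequences of that side in the tables. On the 3p side the median was 22.7% over 13 sequences, against 52.4% over 469, so the 3p strands are rich in A and C. Purines and pyrimidines alternated at a median of 90.5% of the steps from base to base over the 30 sequences, against 47.5% over the 914 others. The ranges overlapped, with alternation at 71.4 to 100% for members and 5.26 to 100% for others. G and U on the 5p side ran from 59.1 to 86.4% and from 19 to 86.4%, respectively. On the 3p side they ran from 15.8 to 40.9% and from 18.2 to 85.7%. The members form 21 seeds, and none of them occurred in another sense entry of the tables. Of these seeds 6 are shared by 2 or more of the sequences. miR-467c-5p and miR-467d-5p have the same seed and together held 108 of the 541 reads. miR-467a-5p has another seed, although it differs from miR-467d-5p at only 2 of 22 bases. The seed of miR-669a-5p is shared by miR-669p-5p, miR-669l-5p and miR-669f-5p, and that of miR-466d-3p by miR-466-3p and miR-297a-3. At a shift of 1 base, miR-466-3p matches the miR-466b-3p sequence over 22 bases, and miR-467b-5p matches miR-467a-5p over 20. Their separate seeds and counts therefore rest on a 1-base offset and on how such reads were placed.

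Most reads came from sequences that the genome holds more than once. By exact match to the annotated hairpins, 13 entries had a sequence found at 1 locus, and they held 230 reads (42.5%). The other 51 entries, with 17 distinct sequences at 2 or more annotated loci, held 311 reads (57.5%). miR-467d-5p, miR-467e-5p, miR-669c-5p, miR-467c-5p, miR-466d-3p and miR-669o-5p are of the first kind, so their counts do not depend on a choice between annotated exact copies. Still, 1 to 3 mismatches separate several of them from other members, and copies outside annotated hairpins were not searched. The sequence of miR-467a-5p is found at 12 loci, those of miR-466b-3p and miR-669a-5p at 15 each and that of miR-669a-3p at 13. How the authors treated reads that match several loci is not given in the sources used here.

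Identical copies held unequal counts. Among 9 listed copies of the miR-467a-5p sequence, with 82 reads together, miR-467a-5 had 37 reads (45.1%, exact binomial 95% interval 34.1 to 56.5%) and miR-467a-4 had 22. miR-467a-1 had 9, and the other 6 had 1 to 4 each. miR-467a-5 had 6, 4, 5, 7, 9 and 6 reads in hearts 1 to 6 and was alone the highest copy in 5 of them; in heart 1 miR-467a-4 had 7. A further 3 loci with this sequence were unlisted. These copies were alike beyond the mature strand, since all 9 were identical with 5 more bases on each side. Of these copies 6 have the same annotated hairpin of 83 bases, and they had 37, 22, 3, 2, 2 and 1 reads.

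The miR-669a hairpins showed the same on both arms. Among 7 listed copies of the 5p sequence, with 49 reads, miR-669a-7 had 31 (63.3%, 48.3 to 76.6%), with 2, 7, 8, 2, 4 and 8 in hearts 1 to 6. The next was miR-669p-1 with 9, and the others had 1 to 3. Among 6 listed copies of the 3p sequence, with 61 reads, miR-669a-10 had 30 (49.2%, 36.1 to 62.3%) and Gm26092 had 24. The other 4 had 1 to 3 reads. miR-669a-7 and miR-669a-10 belong to 7 listed hairpins that are identical over all 87 annotated bases. The table has 31 reads of the 5p arm and no entry for the 3p arm at miR-669a-7, from 10486653 to 10486739. At miR-669a-10, from 10498911 to 10498997, it has 30 reads of the 3p arm and no entry for the 5p arm. The likewise identical miR-669a-1 and Gm26092, of 97 bases, had 1 read of 5p and 24 reads of 3p, respectively. Counts of single loci within such groups therefore give neither the output nor the arm use of a locus. Arms are compared below by name, with copies summed, and also with all hairpins joined that share a mature sequence.

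The reads of miR-466b-3p were spread more evenly. Its sequence was listed at 9 loci under the names miR-466b, miR-466c, miR-466e, miR-466p and Gm25285 and had 42 reads, 10 of them (23.8%, 12.05 to 39.5%) at the leading copy miR-466c-2. Over the 8 sequences with 2 or more listed copies and the 6 hearts, equal counts above 0 at all copies were found in 2 of 48 cases, 1 heart for miR-466b-5p and 1 heart for miR-669m-5p. The 48 include cases with 0 at all copies, 1 heart for miR-467a-3p, 3 for miR-466c-5p and 4 for miR-466b-5p. With so few reads per copy equal counts were unlikely, so their rarity does not show how reads were placed.

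**Figure D4:**
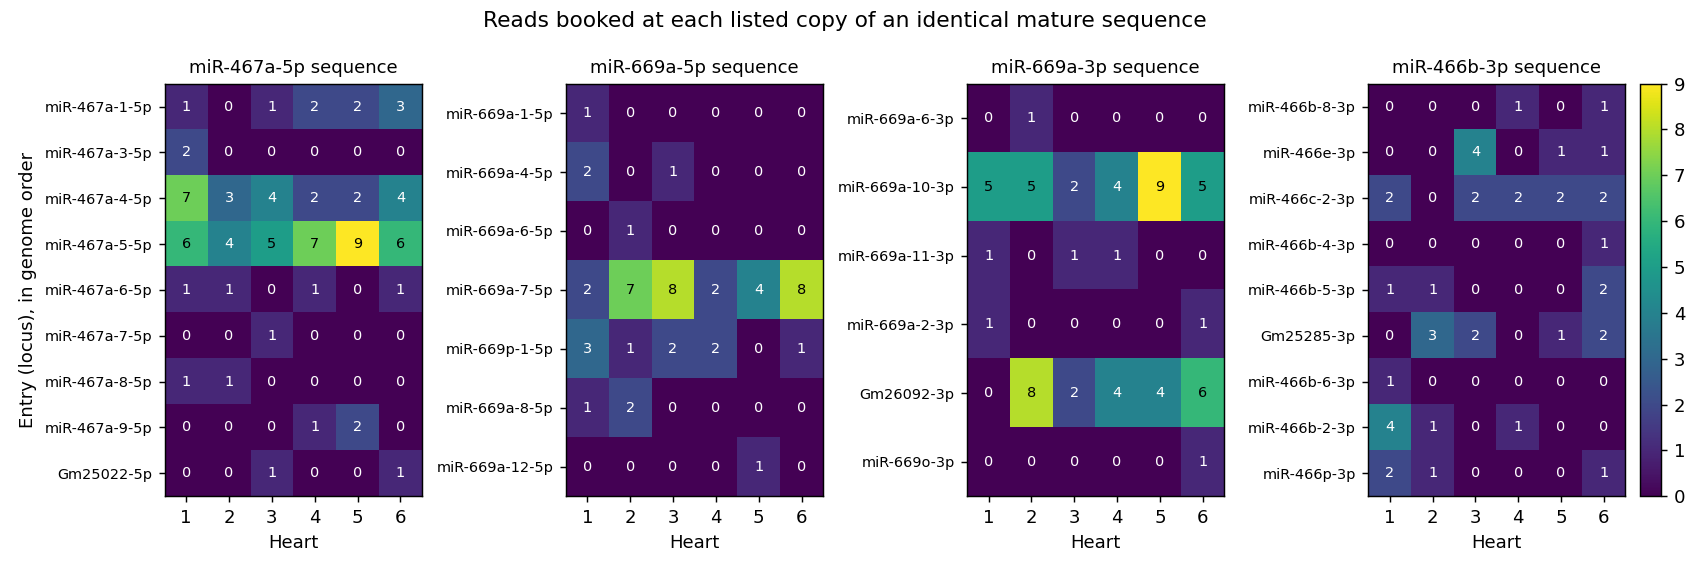
Reads in hearts 1 to 6 (columns, also written in each cell) at every listed copy (rows, in genome order) of 4 shared mature sequences. In the first 3 panels 1 or 2 loci hold most reads in most hearts, such as miR-467a-5 with 4 to 9 reads, while the fourth panel is more even.

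The cluster as a whole gave more 5p than 3p reads, but its families differed. Entries labelled 5p held 382 reads and those labelled 3p held 159, a 5p share of 70.6% that ran from 67.6% to 72.4% over the hearts (mean 70.4% ± 2.08). miR-467 members gave 233 and 24 reads (90.7% 5p, exact binomial 95% interval 86.4 to 93.9%), and miR-669 members 128 and 42 (75.3%, 68.1 to 81.6%). With Gm26092, which shares its hairpin with miR-669a-1, the miR-669 members had 66 reads of 3p and a 5p share of 66.0% (58.9 to 72.6%). miR-466 members went the other way, with 16 reads of 5p and 69 of 3p (18.8% 5p, 11.2 to 28.8%). In hearts 1 to 6 the miR-466 members had 8, 0, 0, 2, 6 and 0 reads of 5p and 13, 10, 15, 8, 10 and 13 of 3p. The intervals pool the reads of all hearts and leave out such spread between them. On that basis the intervals of the 3 families do not overlap, with or without Gm26092, and no test of the difference between families was made. The arm labels of 2 entries, with 5 reads together, do not match their position in the hairpin. They are an entry of miR-669f labelled 5p from 10467285 to 10467307 and that of miR-297a-3, which both lie on the 3p side. By position the 5p share was 69.7%.

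Of the 51 hairpins 12 had entries for both arms. With hairpins of one name summed, 3 had both arms and a mean of at least 10 reads and entered the test of all 214 such hairpins in the tables. miR-467d gave 16, 13, 8, 18, 13 and 12 reads of 5p and 3, 1, 0, 3, 1 and 0 of 3p in hearts 1 to 6. The 5p arm was higher in 6 of 6 hearts with no overlap between the arms, by 9.30-fold (log2 ratio 3.22 ± 0.44, SE, adjusted p = 3.87e-13, quasi-likelihood test of edgeR, blocked by library). miR-467a gave 80 reads of 5p, between 9 and 18 per heart, and 16 of 3p, between 0 and 5, and was higher on 5p in 6 of 6 hearts by 4.84-fold (log2 ratio 2.28 ± 0.38, adjusted p = 2.49e-09, edgeR). The 3p sequences of miR-467d and miR-467a differ only by a shift of 1 base and each is found at 12 loci, so the split of their 3p reads rests on how shared reads were placed. With all 24 of these 3p reads set against miR-467d-5p alone, the 5p arm was 3.30-fold higher (log2 ratio 1.72 ± 0.35, adjusted p = 1.11e-06, edgeR), in 6 of 6 hearts. The same 24 reads set against miR-467a-5p alone gave 3.29-fold. For miR-669a the log2 ratio was 0.07 ± 0.36 (adjusted p = 0.856, 5p higher in 3 of 6 hearts), and the 5p share was 51.3% with an exact binomial 95% interval of 39.7 to 62.8%, so an excess of either arm within that interval was not detectable at this depth. Such calls were common. With calls made at a ratio of 2-fold or more and an adjusted p below 0.05, 48.6% of the hairpins tested were called for 5p and 40.7% for 3p, together 89.3%. The 2 calls for miR-467 are thus what most hairpins showed, and miR-669a was among the minority that was not called. With hairpins joined where they share a mature sequence, the group of miR-669a, miR-669p, miR-669o and Gm26092 had 64 reads of 5p and 63 of 3p (log2 ratio 0.02 ± 0.29, adjusted p = 0.951, edgeR). Of the 5p reads in this group 15 were miR-669o-5p, whose sequence is not that of miR-669a-5p.

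**Figure D5:**
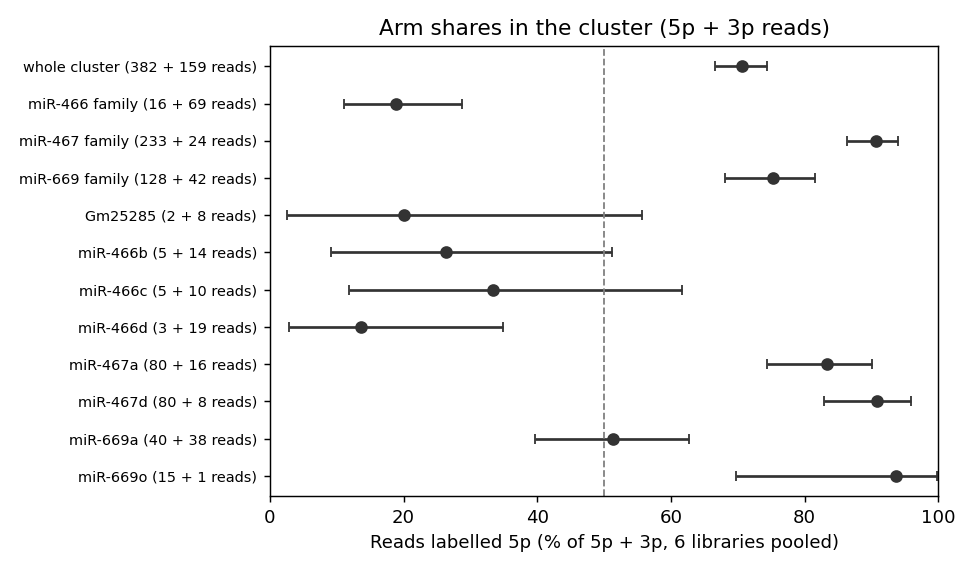
Share of reads labelled 5p (horizontal axis, % of 5p and 3p reads pooled over 6 libraries) with exact binomial 95% intervals, for the cluster, its families and each name with both arms and at least 10 reads. The 3p-rich miR-466 family lies left of the dashed line at 50%, the miR-467 members lie to its right, and miR-669a lies on it.

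Along the window reads were most numerous toward the end that is transcribed last. The last 9 kb, from 40 to 49 kb, held 209 reads at 15 entries, of which 80 were miR-467d-5p. The 4 stretches of 10 kb before it held 73, 88, 75 and 96 reads at 14, 14, 12 and 9 entries. Since identical copies lie in several stretches, this division depends on how shared reads were placed. Of the larger entries whose sequence has 1 annotated locus, miR-467d-5p (80 reads), miR-669c-5p (30), miR-466d-3p (19) and miR-669o-5p (15) lie in the last stretch. Of the same kind, miR-467e-5p (44) and miR-467c-5p (28) lie before it.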

How the data were processed

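Small RNA libraries of 6 hearts, 1 group, were used. The deposited files hold raw read counts per mature arm and locus, per the file headers. GRCm38 coordinates were used, and the tools listed, with no role, are edgeR and DESeq, per the submitters' processing notes. Neither the aligner nor the treatment of multiple matches is stated there. Positions are those of the files, counted from 1. Hairpin and mature sequences were read from GENCODE M21 (GRCm38) and compared by exact match. Library totals include sense entries and the 38 of 76 antisense entries that have a hairpin annotated on the other strand, 3966169 to 6007322 counts, and CPM uses these totals. Entries of one name were summed. Arms were compared over all hairpins with both arms and a mean of at least 10 reads, with edgeR 4.0.16 (quasi-likelihood, library as block, Benjamini-Hochberg adjustment), after checking on simulated data, and called at an adjusted p under 0.05 and 2-fold. DESeq2 1.42.0 was an alternative, with other filters, totals, copy rules and left-out libraries. Intervals are exact Poisson or Clopper-Pearson at 95%. No label says that the libraries came from separate animals, so p-values measure only the spread between these samples, which may be technical. By rule, names with a mean of at least 10 reads (or the 3 largest) were given by library, and groups of 2 or more entries with an identical sequence and at least 10 reads by total. Further members were named after their values were seen. The members and lists were chosen with earlier results of these data known.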

Additional observations from a re-analysis of the deposited data

Results flagged for a closer look

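In 19 summed levels tested for a library far from the others, 1 stood out. Chance would give about 1 in 20 if the levels were independent, which was not tested. The chromosome 12 imprinted locus, used here for comparison, stood at 3051 CPM in heart 5, while the next highest, heart 3, had 2023 CPM. Its coefficient of variation over the hearts was 25.54%, next to 0.9916% from counting alone. The cause of this spread was not tested. The Sfmbt2 cluster in heart 5 stood at 17.5 CPM, inside the range of the other hearts.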

How the results depend on the processing

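The level of the cluster was 14.2 CPM with each distinct sequence counted once, by its highest copy in each library. It ran from 17.2 to 18.4 CPM with TMM-scaled totals, with all antisense entries in the totals or with members taken by family name, and from 17.8 to 18.8 CPM with each heart left out. The number of entries detected was 21 with a minimum mean of 1 read and 1 with a minimum mean of 10, 60 to 63 with each heart left out, and 60.5 expected at the depth of the shallowest library. Against the chromosome 12 locus, the log2 ratio was -6.84 to -6.62 with each heart left out. Exact p was then 0.0625, the smallest that 5 pairs allow. The log2 ratio was -7.14 with each sequence once and -9.53 with entries of a mean of at least 10 reads. The latter sets 1 entry, miR-467d-5p, against 23 of the chromosome 12 locus. The correlation with that locus had the other sign without heart 1 (r = 0.04) or heart 5 (r = 0.15), ran from -0.43 to 0.15 with each heart left out, and was -0.49 (exact permutation p = 0.05, n = 6) after TMM scaling. With the library total r was -0.31 (exact permutation p = 0.606, n = 6) after TMM scaling and ran from -0.70 to -0.31 with each heart left out. The cause of these shifts was not tested. The calls for miR-467a and miR-467d held under DESeq2, TMM scaling, no filter, hairpins joined by sequence, no replicate block and each heart left out. They also held, at 1.72 each, with the 3p reads of both summed, a setting chosen after seeing the data, as was the miR-669 share with Gm26092. Per locus miR-467d held, while no miR-467a or miR-669a locus had enough reads. For miR-669a the log2 ratio was -0.10 without heart 2, -0.14 without heart 3 and -0.0074 without heart 6, reached 0.26 without heart 5, and was called nowhere. All hairpins called for 5p numbered 102 to 117 and for 3p 86 to 104 over these settings, 104 and 87 with no replicate block. Depth limits every single entry here: 1 read is 0.166 to 0.252 CPM.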
